A study of Homo sapiens with 9 samples.

Results

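The genes described here encode the machinery that releases synaptic vesicles: active zone scaffolds, the membrane-fusing SNARE proteins and their regulators, synaptotagmins, synapsins, RAB3 GTPases and integral proteins of the vesicle membrane. The 44 members were chosen by name from a list of presynaptic genes, with earlier results of these data known. They were found by symbol among the 60664 genes of the deposited count tables. By general knowledge, 33 of them are largely restricted to neurons and endocrine cells, and 11 are broadly expressed. The class is less certain for 4 of the neuron-restricted and 5 of the broadly expressed members. Of the 44 genes, 41 had enough counts to be tested. SV2B, DOC2B and RPH3A did not pass the filter on low counts and are given by their counts alone.

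RNA of human HEK293Flip-In T-Rex cells, a modified line of embryonic kidney origin, was sequenced in 9 libraries to see how depletion of TTC33 or of CCDC97 alters gene expression. The TTC33 knock-down group (3 libraries) carried a microRNA against TTC33 driven by a promoter that tetracyclin switches on. The CCDC97 knock-down group (3 libraries) carried a microRNA against CCDC97 under the same kind of promoter. The control group (3 libraries) was the same line without a microRNA. Tetracyclin at 100 ng/ml was given for 3 days in every group, controls included, so that the agent itself does not separate the groups, but the controls expressed no microRNA from such a construct. Each knock-down was a single microRNA line as far as the labels say, and nothing states that replicates were separate cultures. The p-values therefore measure how far these libraries differ, and part of that may be technical.

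At a nerve terminal, synaptic vesicles dock at the active zone, where RIM, Munc13, Bassoon, Piccolo and ELKS proteins gather them near calcium channels. Syntaxin-1 and SNAP25 on the plasma membrane zip together with synaptobrevin on the vesicle, complexins hold the assembled SNARE complex, and a synaptotagmin releases the clamp when calcium enters. Many of these genes are silent or low outside neurons, where the repressor REST binds an element named RE1 near their promoters, while relatives such as SNAP23, UNC13B and ERC1 serve secretion in most cell types.

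Libraries held 21764203 to 36110891 counts in genes. TTC33 itself had 9.67, 6.41 and 6.16 counts per 1e6 counts (CPM) in the TTC33 knock-down, 29.96, 52.5 and 47.0 CPM in the CCDC97 knock-down and 37.7, 37.1 and 38.6 CPM in control. CCDC97 had 65.1, 81.3 and 95.8 CPM in the TTC33 knock-down, 15.8, 15.3 and 15.7 CPM in the CCDC97 knock-down and 60.6, 60.1 and 59.5 CPM in control. In both knock-downs, replicate 1 differed from the other two replicates in how its counts followed GC content. In the tenth of genes with the highest GC content, the median log2 difference from the control mean was -0.09, 0.37 and 0.40 in the TTC33 libraries and 0.15, -0.28 and -0.28 in the CCDC97 libraries. Leaving out replicate 1 thus keeps the knock-down libraries that lay farther from control in these genes. Values without replicate 1 of both knock-downs, and after a correction for GC content and length, are therefore given for the TTC33 knock-down against control where they change a call, and mostly as counts for the other comparisons. Markers of the kidney-derived line summed to 1411 to 1531 CPM in the TTC33 knock-down, 1272 to 1348 CPM in the CCDC97 knock-down and 1320 to 1347 CPM in control. Of 12 general neuronal markers, 5 to 6 reached 1 CPM in each library of the knock-downs and 5 in each control library. Of those below the filter, DCX and ELAVL4, which mark young neurons, were at or near 0 CPM in all groups. ELAVL3 and STMN2 had means of 0.194 and 0.186 CPM in the TTC33 knock-down and 0.0746 and 0.0106 CPM in control. In bulk RNA, a change in the number of cells expressing a gene and a change in RNA per cell cannot be told apart.

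The sequences that bear on these genes are the left and right motifs of the RE1 element in their promoters, shown here because the repressor that binds RE1 was itself lower in the TTC33 knock-down. REST had 70.9, 53.2 and 55.6 CPM in the TTC33 knock-down, 89.3, 110 and 117 CPM in the CCDC97 knock-down and 97.3, 97.6 and 95.7 CPM in control. REST changed by -0.69 ± 0.12 (SE) in TTC33-depleted cells (edgeR adjusted p = 0.00601) and 0.12 ± 0.12 in CCDC97-depleted cells (edgeR adjusted p = 0.611). RefSeq promoters on GRCh38.p14, from 250 bases before to 50 bases after the gene's start, were available for 35 of the 44 members. The start used there lies within 1000 bases of the gene's outer start in GENCODE for 30 of them and farther away for 5. The windows of RPH3A (221368 bases inside the gene), SV2A (10891), RAB3D (6613) and SNAP23 (4401) belong to an inner start. That of SYT3 lies outside the gene, at -18278 bases from its outer start. The 7 letters CAGCACC (left motif) or GGACAGC (right motif) were searched on both strands, without mismatch. One or the other was present in 10 of the 35 promoters (28.6%), against 12.9% of all 27305 promoters in the table, and in 7 of the 30 with a start within 1000 bases (23.3%). The left motif alone was present in 25.7% of the members' promoters and 7.64% of all promoters, the right motif in 8.57% and 6.11%.

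Windows of 30 bases around the matches follow for the members with both motifs close together and for the broadly expressed member with a match. They run 5′ to 3′ along each gene's strand. Capitals mark the motif positions, the mismatched last letter of the right motif in SYN1 included. Both motifs stood within 10 bases of each other in UNC13A and RPH3A, which is true of 2 of the 35 members' promoters (5.71%) and of 31 of all promoters (0.114%). In RPH3A they were 2 bases apart, and in UNC13A 8 bases apart. In SYN1 the right motif, 2 bases after an exact left motif, differed by 1 base. The window lies at chr19:17688338-17688367 (minus strand) for UNC13A, at chr12:112791544-112791573 (plus strand) for RPH3A and at chrX:47620066-47620095 (minus strand) for SYN1.
UNC13A: aggcGCTGTCCgcgcccccGGTGCTGaacc
RPH3A: tcttagcGCTGTCCgtGGTGCTGaccgcca
SYN1: ccagcttCAGCACCgcGGACAGTgccttcg
SNAP23 (chr15:42495537-42495566, plus strand) was the 1 broadly expressed member with a match, among 10 with a promoter in the table.
SNAP23: atttaaaccccCAGCACCgtgattggctcc
A match is a description of these letters and not a binding site. A motif was present in 6 of the 13 promoters of members that rose in the TTC33 knock-down and in 4 of the 22 promoters of the other members, or in 5 of 12 and 2 of 18 among those with a start within 1000 bases. The 13 include SYT1, SYT4, SYT5 and SYN1, which passed the filter on low counts only through the TTC33 libraries. Of these, SYT4 and SYN1 hold a match. The other members include RPH3A and SV2B, which hold a match but were not tested. These counts are therefore no test of the motif. RPH3A, with both motifs exact, stayed below the filter in every group, with 2, 1 and 0 counts in the TTC33 knock-down, 3, 0 and 0 counts in the CCDC97 knock-down and 1, 3 and 1 counts in control. The part of REST in the changes below was not tested.

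In the TTC33 knock-down, 18 of the 41 members tested rose against control and 1 fell, at an edgeR adjusted p under 0.05 over 18299 genes. Of all genes tested, 11.9% passed that threshold, 6.5% higher and 5.44% lower. Since the members were chosen with earlier results of these data known, their counts describe these genes and are no test of the set. Neuron-restricted members made up 17 of the 18 that rose, out of 30 tested, and none of them fell. Among the 11 broadly expressed members SYT7 rose, ERC1 fell and 9 did not pass the threshold. The median log2 fold change was 0.52 over the neuron-restricted members, 0.15 over the broadly expressed ones and 0.0045 over all genes tested. With the members of uncertain class set aside, 16 of 27 neuron-restricted members rose, with a median of 0.59, and 0 of 6 broadly expressed members rose while 1 fell, with a median of 0.01.

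Per library, the median log2 difference of the neuron-restricted members from the control mean was 0.43, 0.52 and 0.61 in TTC33-depleted cells and 0.16, -0.09 and -0.09 in CCDC97-depleted cells. For the broadly expressed members it was 0.14, 0.13 and 0.13 in TTC33-depleted cells and -0.11, -0.33 and -0.16 in CCDC97-depleted cells. The summed level of the neuron-restricted members was 550 to 651 CPM in the TTC33 knock-down, 336 to 399 CPM in the CCDC97 knock-down and 345 to 356 CPM in control. That of the broadly expressed members was 497 to 563 CPM in the TTC33 knock-down, 463 to 530 CPM in the CCDC97 knock-down and 545 to 560 CPM in control, and the TTC33 and control ranges overlapped.

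The filter kept 4 neuron-restricted genes, SYT1, SYT4, SYT5 and SYN1, only through the TTC33 libraries, where they were high. Since a gene kept in this way had to differ, the count was also taken without them. Among the 37 members that passed the filter without the TTC33 libraries, 14 rose, 13 of them neuron-restricted out of 26. The medians above, and the counts with uncertain classes set aside, include the 4 genes. Members that rose were found in each range of control level, with the smallest share in the highest range. The 5 tested members under 1 CPM in control were RUNDC3A and the 4 genes kept through the TTC33 libraries, so their count says nothing about the level. Of the rest, 4 of 10 rose at 1 to 5 CPM, 7 of 14 at 5 to 20 CPM and 2 of 12 above that, where 1 fell. The median log2 fold change in these ranges was 0.47, 0.39 and 0.14. Most members of the highest range were broadly expressed, so class and control level were not independent.

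**Figure D1:**
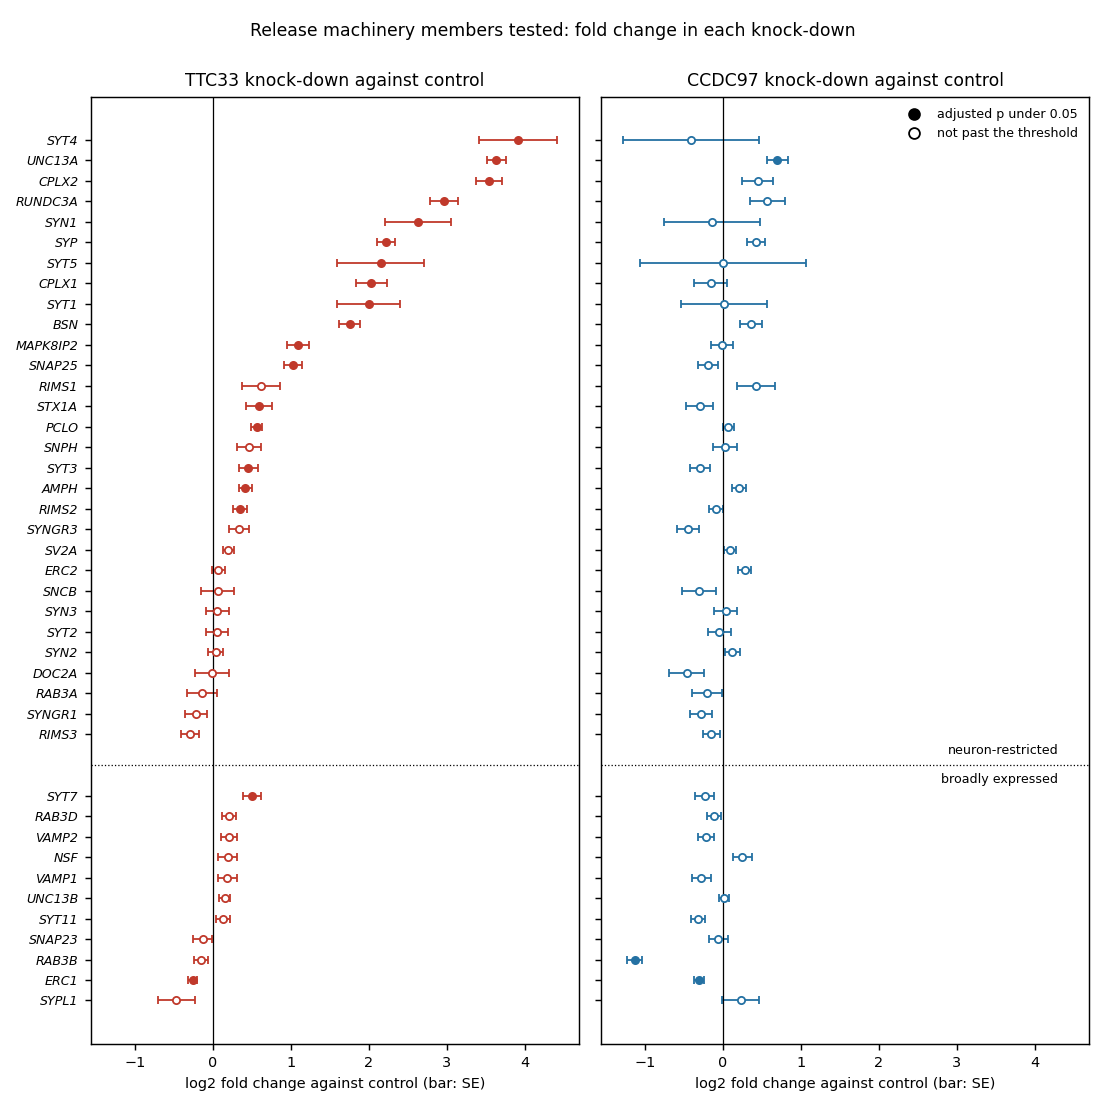
Log2 fold change against control (horizontal axis, bar: SE) of the 41 members tested, for the TTC33 knock-down on the left and the CCDC97 knock-down on the right, with 3 libraries a group. Filled circles passed an adjusted p of 0.05, open circles did not. Among the neuron-restricted members above the dotted line, 17 rose in TTC33-depleted cells and 1 in CCDC97-depleted cells, and broadly expressed members below the line lie between -0.47 and 0.50 in TTC33-depleted cells, with RAB3B the farthest from 0 in the CCDC97 knock-down.

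Among the active zone proteins, 4 of 9 tested genes rose and 1 fell in the TTC33 knock-down. UNC13A (chr19:17601328-17688365 on GRCh38, minus strand), the Munc13 protein that primes vesicles for fusion, had 26.3, 26.4 and 28.96 CPM in the TTC33 knock-down, 4.10, 3.40 and 3.05 CPM in the CCDC97 knock-down and 2.35, 2.01 and 2.19 CPM in control. The TTC33 libraries lay far above all others, and the CCDC97 libraries lay above the controls without overlap. The fold change was 12.4 in the TTC33 knock-down, which is 3.64 ± 0.12 (SE) on the log2 scale (edgeR adjusted p = 6.24e-08). UNC13B, its more widely expressed relative, had 64.6, 67.0 and 64.5 CPM in the TTC33 knock-down, 57.5, 62.0 and 59.6 CPM in the CCDC97 knock-down and 59.1, 58.1 and 59.4 CPM in control. The UNC13B log2 fold change of 0.15 ± 0.06 in the TTC33 knock-down did not pass the threshold (edgeR adjusted p = 0.141), although the TTC33 and control libraries did not overlap. It passed at 0.16 after the GC and length correction (edgeR adjusted p = 0.0451) and without replicate 1 of both knock-downs. Per kilobase of exon, the level of UNC13A was 2.43 CPM in the TTC33 knock-down and 0.195 CPM in control, against 3.65 CPM in the TTC33 knock-down and 3.29 CPM in control for UNC13B.

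The giant scaffolds Bassoon and Piccolo, which organise the active zone, both rose. BSN (chr3:49554489-49671545, plus strand) had 42.2, 51.6 and 53.6 CPM in the TTC33 knock-down, 23.1, 16.4 and 16.5 CPM in the CCDC97 knock-down and 15.1, 14.9 and 13.7 CPM in control, with a log2 fold change of 1.75 ± 0.14 in the TTC33 knock-down (edgeR adjusted p = 4.2e-05). PCLO (chr7:82754013-83162930, minus strand) had 97.6, 100.5 and 108 CPM in the TTC33 knock-down, 74.5, 67.8 and 75.1 CPM in the CCDC97 knock-down and 70.7, 67.8 and 68.8 CPM in control. For PCLO the log2 fold change was 0.56 ± 0.07 (edgeR adjusted p = 0.000938), a smaller rise than that of BSN on a higher control level. For both genes every TTC33 library lay above every other library.

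Of the RIM scaffolds, which tether vesicles to calcium channels, RIMS2 rose by a small amount, with 25.0, 21.1 and 21.6 CPM in the TTC33 knock-down, 16.3, 16.2 and 17.3 CPM in the CCDC97 knock-down and 18.3, 17.9 and 16.7 CPM in control. The log2 fold change of RIMS2 was 0.36 ± 0.09 in the TTC33 knock-down (edgeR adjusted p = 0.0301), and this call was lost without any one control library or TTC33 replicate 2 or 3 (adjusted p of 0.0611 to 0.122 in those fits). RIMS1, with 1.64, 1.39 and 1.80 CPM in the TTC33 knock-down and 1.41, 0.762 and 0.951 CPM in control, had a log2 fold change of 0.62 ± 0.24 and did not pass (edgeR adjusted p = 0.108). RIMS3 had 14.5, 17.4 and 14.9 CPM in the TTC33 knock-down and 19.6, 18.6 and 19.1 CPM in control, and did not pass either (log2 fold change -0.29 ± 0.11; edgeR adjusted p = 0.105). RIMS3 passed at -0.42 after the GC and length correction (edgeR adjusted p = 0.00155) and at -0.24 without replicate 1 of both knock-downs.

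Of the ELKS scaffolds, the broadly expressed one fell and the neuronal one did not pass. ERC1, the widely expressed form, had 130, 133 and 141 CPM in the TTC33 knock-down, 127, 128 and 135 CPM in the CCDC97 knock-down and 157, 166 and 160 CPM in control. It fell in both knock-downs, with no overlap with control, by a log2 fold change of -0.26 ± 0.06 in TTC33-depleted cells (edgeR adjusted p = 0.0267) and -0.31 ± 0.06 in CCDC97-depleted cells (edgeR adjusted p = 0.0234). Both comparisons share the control libraries, and both calls were lost without control replicate 1, 2 or 3. The TTC33 call was also lost without TTC33 replicate 2, and the CCDC97 call without CCDC97 replicate 2 or 3, with adjusted p of 0.0873 to 0.126 and of 0.0549 to 0.136 in the fits that lost it. ERC2, the neuronal form, had 13.7, 13.9 and 13.3 CPM in the TTC33 knock-down, 16.4, 14.7 and 16.3 CPM in the CCDC97 knock-down and 12.9, 12.8 and 13.4 CPM in control. Its TTC33 and control libraries overlapped, and its log2 fold change in the TTC33 knock-down was 0.07 ± 0.08 (edgeR adjusted p = 0.603).

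Both complexins, which bind the assembled SNARE complex, rose in the TTC33 knock-down. CPLX2 (chr5:175796310-175884020, plus strand) had 12.1, 12.7 and 13.2 CPM in the TTC33 knock-down, 1.84, 1.52 and 0.968 CPM in the CCDC97 knock-down and 1.08, 1.12 and 1.05 CPM in control. The fold change was 11.7, a log2 fold change of 3.55 ± 0.17 (edgeR adjusted p = 8.51e-07). CPLX1 (chr4:784957-826198, minus strand) had 18.0, 25.8 and 29.3 CPM in the TTC33 knock-down, 6.93, 4.59 and 4.40 CPM in the CCDC97 knock-down and 6.30, 5.31 and 6.25 CPM in control, with a log2 fold change of 2.03 ± 0.20 (edgeR adjusted p = 0.000163). Per kilobase of exon, the level of CPLX1 was 10.1 CPM in the TTC33 knock-down and 2.46 CPM in control, and that of CPLX2 was 1.79 CPM in the TTC33 knock-down and 0.152 CPM in control, so that CPLX1 was the higher of the pair in both groups. NSF, the ATPase that takes spent SNARE complexes apart, had 78.2, 68.0 and 61.3 CPM in the TTC33 knock-down and 59.7, 61.9 and 60.2 CPM in control, with a log2 fold change of 0.19 ± 0.12 (edgeR adjusted p = 0.295), and passed at 0.25 after the GC and length correction (edgeR adjusted p = 0.0259).

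Of the SNARE proteins themselves, the neuronal plasma membrane pair rose, and 3 broadly expressed members did not pass the threshold. SNAP25 (chr20:10218830-10307418, plus strand) had 10.9, 9.15 and 8.95 CPM in the TTC33 knock-down, 3.86, 4.16 and 4.50 CPM in the CCDC97 knock-down and 4.89, 4.98 and 4.34 CPM in control, with a log2 fold change of 1.03 ± 0.12 (edgeR adjusted p = 0.000433). STX1A, syntaxin-1A, had 5.21, 6.59 and 7.54 CPM in the TTC33 knock-down, 4.07, 3.24 and 3.05 CPM in the CCDC97 knock-down and 4.86, 3.73 and 4.19 CPM in control. Its groups did not overlap, but the gap to the highest control was narrow, and the log2 fold change of 0.59 ± 0.16 (edgeR adjusted p = 0.0407) was called in only 2 of the 9 fits that leave out 1 library, those without TTC33 or CCDC97 replicate 1, with adjusted p of 0.0575 to 0.174 in the other 7. It was also lost when the TTC33 and control libraries were fitted alone (adjusted p = 0.0559). STX1A also shares 662 exon bases with BUD23 on the opposite strand. Since the strand setting of the counting is not given, reads of the 2 genes may not be separable.

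SNAP23, the form of SNAP25 found in most tissues, had 53.3, 41.2 and 38.1 CPM in the TTC33 knock-down, 41.2, 49.5 and 48.5 CPM in the CCDC97 knock-down and 49.9, 47.5 and 47.7 CPM in control. These groups overlapped, with TTC33 replicate 1 above the controls and replicates 2 and 3 below them, and the log2 fold change was -0.13 ± 0.12 (edgeR adjusted p = 0.489). Without replicate 1 of both knock-downs it was -0.29 and passed the threshold, and after the GC and length correction it was -0.03 and did not. SNAP23 shares 1394 exon bases with AC018362.1 on the opposite strand, so the same doubt about strand holds for it. VAMP1 and VAMP2, the vesicle SNAREs, did not pass. VAMP1 had 13.7, 14.5 and 14.3 CPM in the TTC33 knock-down, 12.4, 9.78 and 8.47 CPM in the CCDC97 knock-down and 12.9, 12.5 and 11.9 CPM in control. VAMP2 had 32.0, 35.2 and 38.7 CPM in the TTC33 knock-down, 28.8, 23.2 and 27.1 CPM in the CCDC97 knock-down and 29.5, 31.0 and 31.3 CPM in control. For both, the TTC33 libraries were all above the controls, but the log2 fold changes of 0.19 ± 0.12 for VAMP1 (edgeR adjusted p = 0.317) and 0.21 ± 0.10 for VAMP2 (edgeR adjusted p = 0.183) stayed short of the threshold. Without replicate 1 of both knock-downs they were 0.21 and 0.27 and passed, and after the GC and length correction they were 0.10 and 0.12 and did not.

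**Figure D2:**
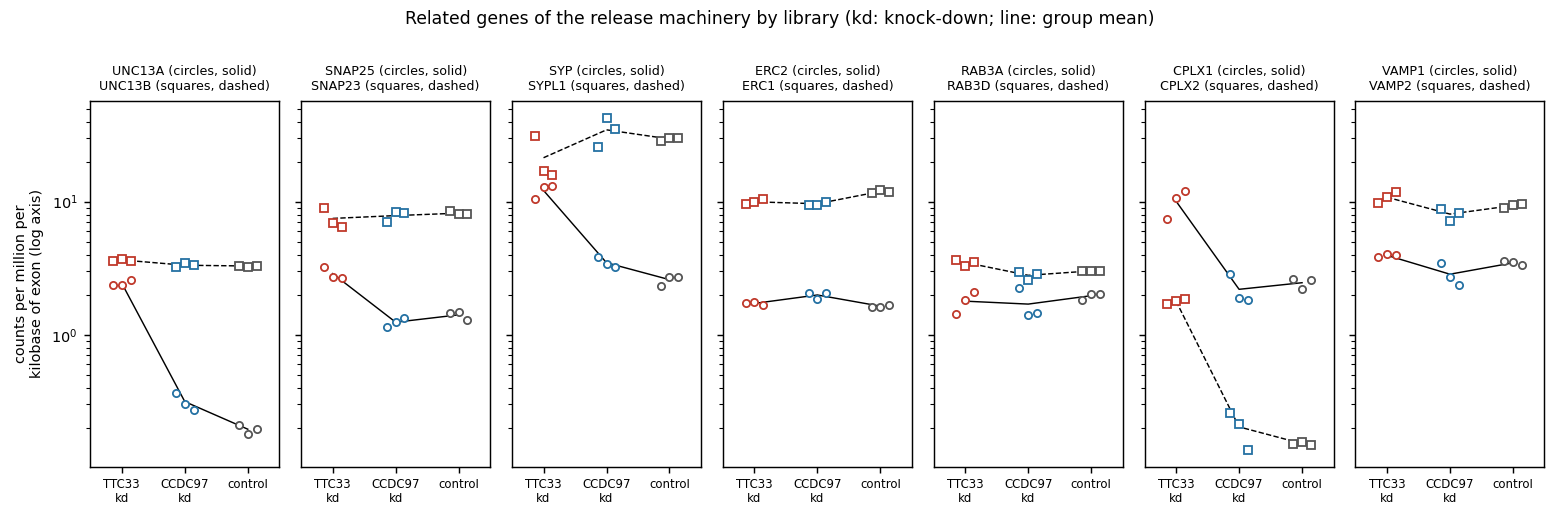
Level in CPM per kilobase of exon (vertical axis, log scale) of 7 pairs of related members in each of the 9 libraries, TTC33 knock-down (red), CCDC97 knock-down (blue) and control (grey), with lines through the group means. UNC13A, SNAP25, SYP and both complexins are higher in the TTC33 knock-down, whereas UNC13B, SNAP23, ERC2, RAB3A, RAB3D, VAMP1 and VAMP2 did not pass the threshold.

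Synaptotagmins and the related DOC2 proteins carry C2 domains, most of which bind calcium. In the TTC33 knock-down 5 of the 8 tested rose, among them SYT1, SYT4 and SYT5. The filter kept those genes only through the TTC33 libraries, so they had to differ. Without them, SYT3 and SYT7 remain as the synaptotagmins that rose. SYT4 (chr18:43267878-43277650, minus strand), a synaptotagmin of neurons and endocrine cells, had 6.01, 2.46 and 2.41 CPM in the TTC33 knock-down, 0.106, 0.0661 and 0.436 CPM in the CCDC97 knock-down and 0.304, 0.245 and 0.159 CPM in control. These values rest on 187, 71 and 63 counts in the TTC33 knock-down, 3, 2 and 9 counts in the CCDC97 knock-down and 11, 9 and 5 counts in control. Its log2 fold change of 3.91 ± 0.50 in the TTC33 knock-down (edgeR adjusted p = 0.000996) overlapped that of UNC13A within its SE, and TTC33 replicate 1 stood well above the others. Without replicate 1 of both knock-downs it was 3.33, below UNC13A at 3.66 and CPLX2 at 3.58.

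SYT1, the calcium sensor of fast release, was scarce in every group, with 19, 14 and 11 counts in the TTC33 knock-down, 2, 6 and 2 counts in the CCDC97 knock-down and 5, 6 and 2 counts in control. The SYT1 log2 fold change was 2.00 ± 0.41 (edgeR adjusted p = 0.0124). SYT5 was as scarce, with 11, 21 and 31 counts in the TTC33 knock-down, 4, 8 and 1 counts in the CCDC97 knock-down and 2, 8 and 7 counts in control, and a log2 fold change of 2.15 ± 0.56 (edgeR adjusted p = 0.0325). For both genes the TTC33 libraries lay above all controls. DESeq2's Wald test gave neither an adjusted p. The SYT1 call was lost without control replicate 1 or 3 (adjusted p of 0.0575 and 0.0582), and the SYT5 call held in 4 of the 9 fits without 1 library.

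SYT3 and SYT7 rose by less. SYT3 had 7.20, 8.56 and 8.95 CPM in the TTC33 knock-down, 5.66, 4.39 and 4.65 CPM in the CCDC97 knock-down and 6.27, 5.80 and 5.93 CPM in control, a log2 fold change of 0.45 ± 0.12 in the TTC33 knock-down (edgeR adjusted p = 0.0377). SYT7, a calcium sensor of slower release that also acts at lysosomes, had 8.16, 9.71 and 9.26 CPM in the TTC33 knock-down, 5.91, 4.72 and 5.71 CPM in the CCDC97 knock-down and 6.74, 6.53 and 5.87 CPM in control. It was the only broadly expressed member that rose (log2 fold change 0.50 ± 0.12; edgeR adjusted p = 0.0222), and its class is one of the uncertain ones. The 6 members SYT3, SYT5, SYT7, RIMS2, STX1A and AMPH each lost their call without any one control library and without TTC33 replicate 2 or 3. In the fits that lost it, the adjusted p was 0.0582 to 0.159 for SYT3, which was also lost without CCDC97 replicate 3, 0.0810 to 0.142 for SYT5 and 0.0713 to 0.101 for SYT7. SYT11, which binds no calcium, SYT2, another fast sensor, and DOC2A, a sensor of spontaneous release, did not pass, with log2 fold changes of 0.13 ± 0.09, 0.06 ± 0.15 and -0.01 ± 0.22. SYT2 shares 2111 exon bases with PPP1R12B on the opposite strand. DOC2B stayed below the filter, with 0, 6 and 4 counts in the TTC33 knock-down, 10, 8 and 6 counts in the CCDC97 knock-down and 5, 5 and 7 counts in control.

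On the vesicle membrane, 1 of 5 tested members rose. SYP (chrX:49187804-49200259, minus strand), which encodes synaptophysin, an abundant vesicle protein and a standard marker of neuroendocrine cells, had 54.3, 67.0 and 68.7 CPM in the TTC33 knock-down, 19.9, 17.8 and 16.7 CPM in the CCDC97 knock-down and 12.2, 14.2 and 14.2 CPM in control. All TTC33 libraries lay far above the rest, with a fold change of 4.68 and a log2 fold change of 2.23 ± 0.12 (edgeR adjusted p = 1.33e-06). SYPL1, the form of many tissues, had 88.0, 47.7 and 44.2 CPM in the TTC33 knock-down, 72.7, 119 and 99.5 CPM in the CCDC97 knock-down and 80.7, 84.5 and 83.8 CPM in control. Its TTC33 libraries split around the controls, and the log2 fold change of -0.47 ± 0.24 did not pass (edgeR adjusted p = 0.205). Without replicate 1 of both knock-downs it was -0.85 and passed, and after the GC and length correction it was -0.27 and did not.

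SV2A, a vesicle glycoprotein, had 54.9, 60.5 and 59.4 CPM in the TTC33 knock-down, 56.0, 53.7 and 52.5 CPM in the CCDC97 knock-down and 49.8, 48.4 and 53.9 CPM in control. Its log2 fold change of 0.20 ± 0.07 did not pass (edgeR adjusted p = 0.0978). The synaptogyrins did not pass either, at 0.34 ± 0.13 for SYNGR3 and -0.21 ± 0.14 for SYNGR1 on the log2 scale. Without replicate 1 of both knock-downs SV2A at 0.24 and SYNGR3 at 0.40 passed. After the GC and length correction SYNGR1 passed at -0.42, whereas SV2A at 0.09 and SYNGR3 at 0.12 did not. SV2B stayed below the filter, with 12, 5 and 4 counts in the TTC33 knock-down, 5, 5 and 4 counts in the CCDC97 knock-down and 10, 4 and 6 counts in control.

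Of the 3 synapsins, which tether vesicles of the reserve pool, SYN1 alone rose, a gene that the filter kept only through the TTC33 libraries. SYN1 had 1.25, 1.46 and 2.56 CPM in the TTC33 knock-down, 0.283, 0.330 and 0.0968 CPM in the CCDC97 knock-down and 0.470, 0.218 and 0.127 CPM in control, with a log2 fold change of 2.63 ± 0.43 in the TTC33 knock-down (edgeR adjusted p = 0.00398). It shares 297 exon bases with AL009172.2 on the same strand. SYN2 had 12.3, 12.6 and 12.8 CPM in the TTC33 knock-down, 14.9, 12.1 and 13.0 CPM in the CCDC97 knock-down and 12.9, 12.4 and 11.5 CPM in control. SYN3 had 3.08, 3.50 and 2.91 CPM in the TTC33 knock-down, 3.57, 2.74 and 3.05 CPM in the CCDC97 knock-down and 2.96, 3.40 and 2.76 CPM in control. For SYN2 and SYN3 the groups overlapped, with log2 fold changes of 0.04 ± 0.10 and 0.06 ± 0.15 that turned to -0.02 and -0.06 after the GC and length correction.

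No RAB3 GTPase tested passed the threshold in the TTC33 knock-down. RAB3A, the form of synaptic vesicles, had 2.60, 3.33 and 3.83 CPM in the TTC33 knock-down, 4.07, 2.54 and 2.66 CPM in the CCDC97 knock-down and 3.34, 3.67 and 3.71 CPM in control, with a log2 fold change of -0.14 ± 0.19 (edgeR adjusted p = 0.649). RAB3D, known from exocrine secretion, had 16.2, 14.6 and 15.5 CPM in the TTC33 knock-down, 13.1, 11.4 and 12.6 CPM in the CCDC97 knock-down and 13.3, 13.4 and 13.3 CPM in control, with a log2 fold change of 0.21 ± 0.09 (edgeR adjusted p = 0.127). RAB3D shares 906 exon bases with AC011472.3 on the opposite strand.

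RAB3B (chr1:51907956-51990764, minus strand), a RAB3 of secretory cells, was low in the CCDC97 knock-down. It had 48.5, 41.8 and 42.4 CPM in the TTC33 knock-down, 23.0, 20.4 and 23.9 CPM in the CCDC97 knock-down and 48.4, 51.4 and 47.8 CPM in control. Every CCDC97 library lay below every other library, while TTC33 and control libraries overlapped. RAB3B fell by a log2 fold change of -1.13 ± 0.09 in the CCDC97 knock-down (edgeR adjusted p = 5.93e-05), a call that held in all 9 fits without 1 library. In the TTC33 knock-down it was -0.15 ± 0.09 (edgeR adjusted p = 0.257), and passed at -0.23 without replicate 1 of both knock-downs. After the GC and length correction RAB3B was at -0.14 there and did not pass.

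Of the other presynaptic genes, 3 of 5 rose in the TTC33 knock-down. RUNDC3A, a RUN-domain protein of neurons and endocrine cells, had 3.79, 4.51 and 4.32 CPM in the TTC33 knock-down, 0.637, 0.859 and 0.919 CPM in the CCDC97 knock-down and 0.497, 0.626 and 0.476 CPM in control. Its log2 fold change was 2.96 ± 0.18 (edgeR adjusted p = 4.47e-06), and it shares 225 exon bases with RUNDC3A-AS1 on the opposite strand. MAPK8IP2, a scaffold of JNK signalling in neurons, had 78.3, 107 and 112 CPM in the TTC33 knock-down, 55.0, 40.6 and 42.8 CPM in the CCDC97 knock-down and 45.8, 45.3 and 48.1 CPM in control, with a log2 fold change of 1.10 ± 0.14 (edgeR adjusted p = 0.00103).

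AMPH, amphiphysin, which bends membrane during vesicle retrieval, had 11.7, 12.4 and 12.5 CPM in the TTC33 knock-down, 11.1, 10.4 and 10.1 CPM in the CCDC97 knock-down and 8.79, 9.25 and 9.32 CPM in control. The AMPH log2 fold change was 0.42 ± 0.09 in the TTC33 knock-down (edgeR adjusted p = 0.0125), and the 3 groups lay in order without overlap. In the fits that lost this call the adjusted p was 0.0524 to 0.0760. SNPH, which anchors mitochondria in axons, and SNCB, beta-synuclein, did not pass, with log2 fold changes of 0.47 ± 0.15 (edgeR adjusted p = 0.0664) and 0.06 ± 0.21 (edgeR adjusted p = 0.866). SNPH passed at 0.61 without replicate 1 of both knock-downs and at 0.26 after the GC and length correction.

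**Figure D3:**
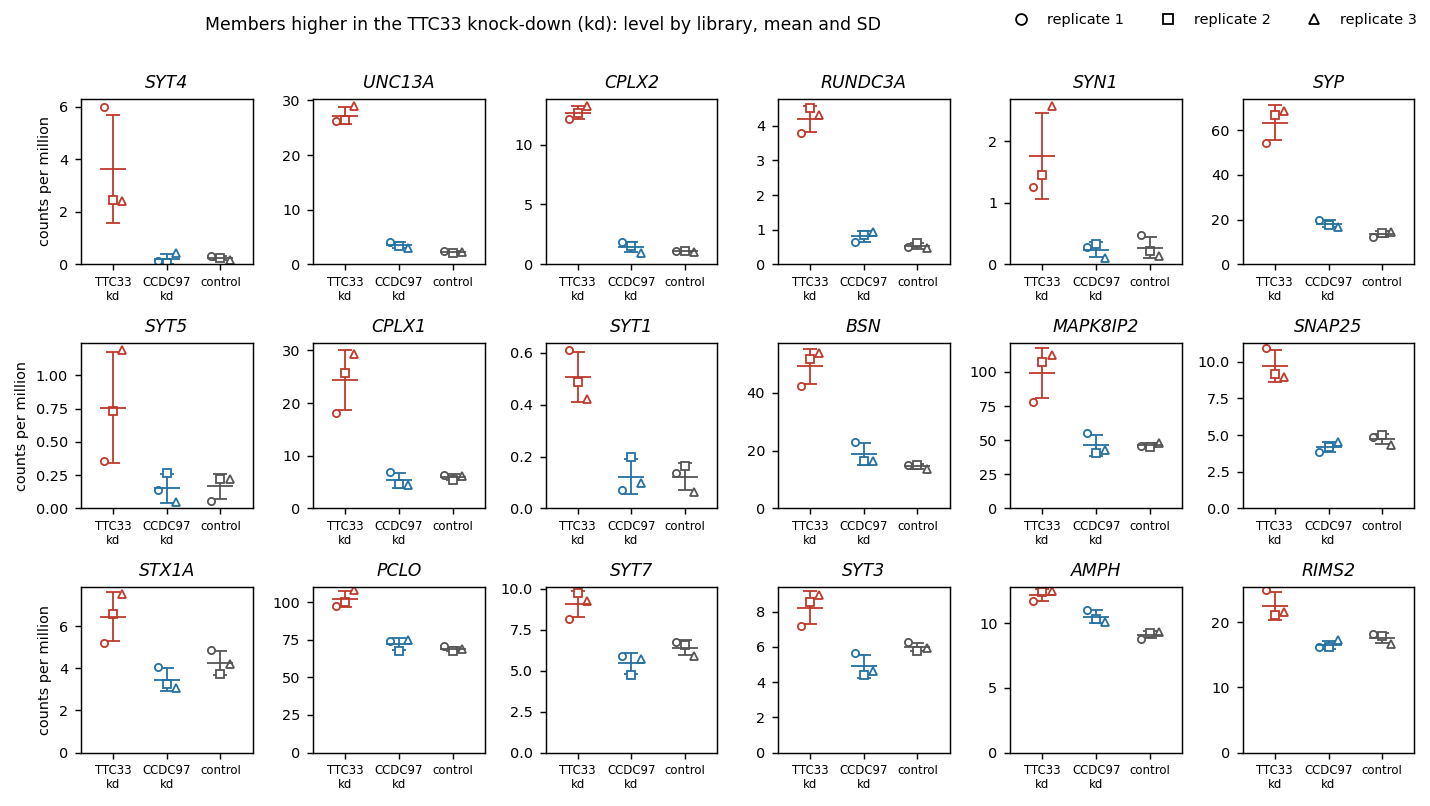
Level in CPM (vertical axes, each from 0) of the 18 members that rose in the TTC33 knock-down, in each library of the TTC33 knock-down (red), the CCDC97 knock-down (blue) and control (grey). Bars give mean and SD of 3 libraries and marker shapes the replicate numbers. In each panel the 3 TTC33 libraries lie above the 3 control libraries, with a ratio of the lowest TTC33 library to the highest control library from 11.2 for UNC13A and 10.9 for CPLX2 down to 1.07 for STX1A. The genes were picked by adjusted p on these same libraries, so the lack of overlap adds no support. Of the 22 tested members that were not called, 9 did not overlap either, and the share over all genes was not counted. SYT1, SYT4, SYT5 and SYN1 passed the filter only through the TTC33 libraries.

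The 18 rises differed in how far they depended on single libraries. UNC13A, CPLX1, CPLX2, SYP, SYT4, SNAP25, SYN1, BSN, PCLO, RUNDC3A and MAPK8IP2, 11 in all, were called in every one of the 9 fits that leave out 1 library. SYT4 and SYN1 are among the genes that the filter kept only through the TTC33 libraries, so for them this is no sign of stability. The other 7 were called in 2 to 7 of these fits. Since TTC33 replicates 2 and 3 had more counts in GC-rich genes than control, GC content was set beside the fold changes. The median GC content of the longest transcript was 58.0% for the 18 members that rose and 53.0% for the 22 that did not pass, against 48.2% over all genes, and it was 57.0% for the neuron-restricted and 46.3% for the broadly expressed members. The GC and length correction called 4913 of 18299 genes, 2357 of them higher, against 2186 and 1190 without it, so a call was easier to keep. After it all 18 were still called higher, UNC13A at a log2 fold change of 3.49, CPLX2 at 3.37, SYP at 2.04, CPLX1 at 1.72 and BSN at 1.51. SYT4, SNAP25 and SYT1, whose transcripts are GC-poor, moved to 4.07, 1.19 and 2.09. MAPK8IP2, STX1A, SYT7 and SYT3 were smaller, at 0.86, 0.40, 0.31 and 0.26. ERC1 remained lower, at -0.32.

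**Figure D4:**
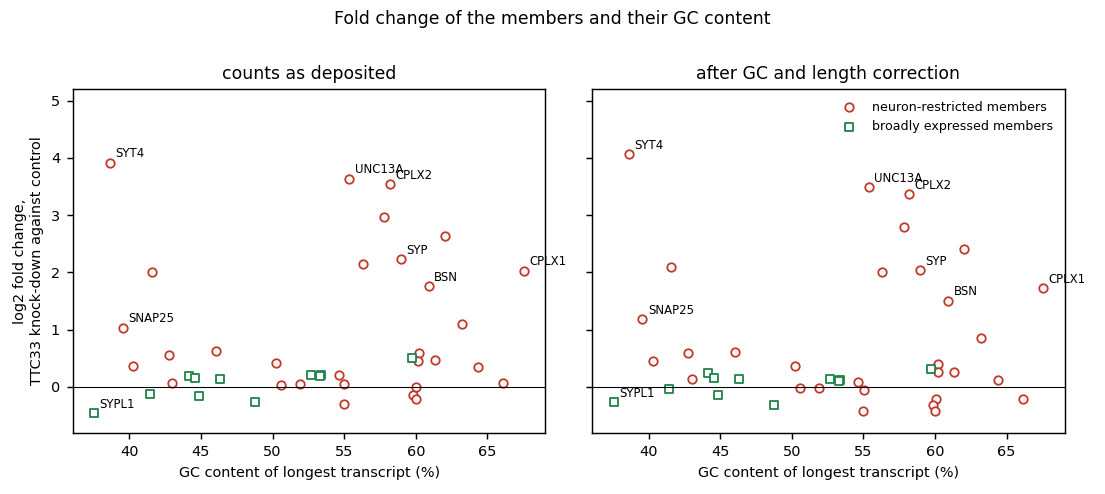
Log2 fold change of the TTC33 knock-down against control (vertical axis) and GC content of the longest transcript in percent (horizontal axis) for the 41 members tested, from the deposited counts on the left and after the correction for GC content and length on the right. Circles are neuron-restricted and squares broadly expressed members. Members with a log2 fold change above 1 lie at both ends of the GC range, from SYT4 and SNAP25 to CPLX1, before and after the correction.

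Ordered by level per kilobase of exon in control, the broadly expressed members came first: SYPL1 at 29.6 CPM per kilobase, NSF at 12.1 and ERC1 at 11.9, followed by the neuron-restricted SV2A at 10.5. The levels of NSF and ERC1 lay within 1 SD of each other (SD 0.226 and 0.362, n = 3 control libraries). Of the 11 broadly expressed members 10 were among the first 14 of the 44, and SYT7 was in place 29. Of the neuron-restricted members that rose, MAPK8IP2 was already high in control, at 7.86 CPM per kilobase, and reached 16.8 in the TTC33 knock-down. SYP and CPLX1 stood in the middle of the order, at 2.60 and 2.46 CPM per kilobase in control, and reached 12.1 and 10.1 in the TTC33 knock-down. UNC13A and CPLX2 were in places 34 and 35 in control, and SYN1, SYT4, SYT5 and SYT1 lay below them. On the same scale SYT4 had 0.817 CPM per kilobase in the TTC33 knock-down and SYT1 0.0778, so that SYT1 remained among the lowest members in both groups.

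**Figure D5:**
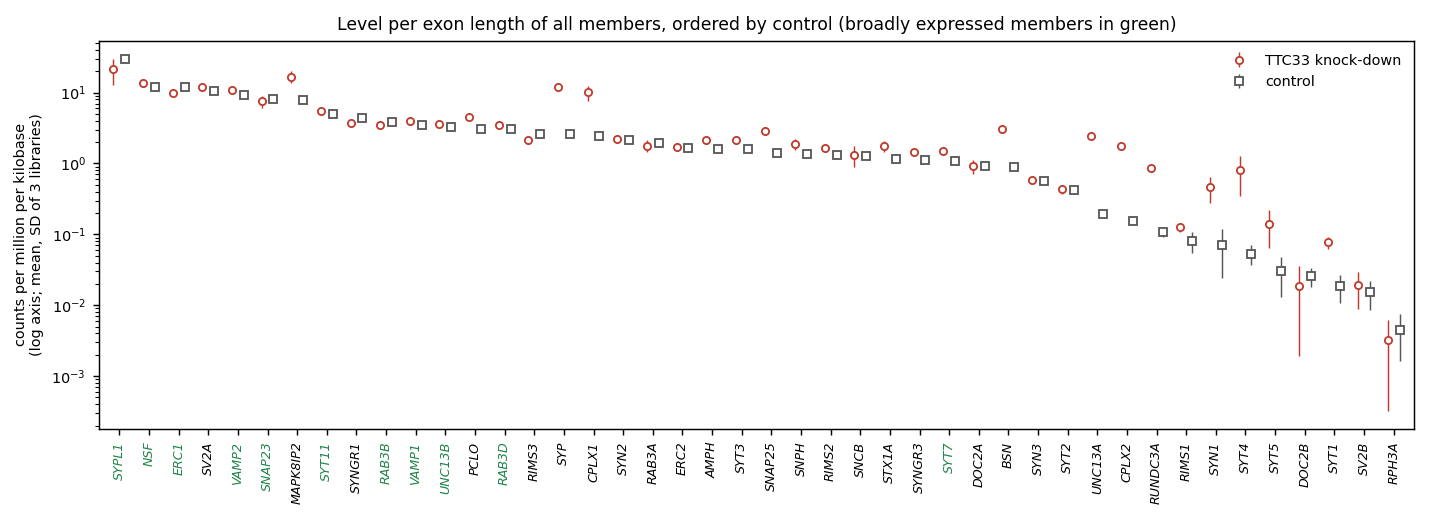
Level in CPM per kilobase of exon (vertical axis, log scale, mean and SD of 3 libraries) of all 44 members in the TTC33 knock-down (red circles) and control (grey squares), ordered from high to low in control, with broadly expressed members named in green. The 2 groups lie close together for most genes on the left, and UNC13A, CPLX2, RUNDC3A, SYN1, SYT4 and SYT5 on the right are well above control in the TTC33 knock-down.

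In the CCDC97 knock-down, 1 member rose and 2 fell of the 41 tested, where 4.56% of all genes passed the threshold, 2.07% higher and 2.49% lower. The median log2 fold change was -0.06 over all members tested, -0.0042 over the neuron-restricted and -0.21 over the broadly expressed ones. UNC13A rose, by a log2 fold change of 0.70 ± 0.13 (edgeR adjusted p = 0.0177), but that call was lost without any one of the control libraries and without CCDC97 replicate 2 (adjusted p of 0.0583 to 0.1005). RAB3B and ERC1 fell, as given above. SYP, CPLX2 and RUNDC3A, which rose strongly in the TTC33 knock-down, had log2 fold changes of 0.42 ± 0.12 (edgeR adjusted p = 0.0636), 0.45 ± 0.20 (edgeR adjusted p = 0.241) and 0.57 ± 0.23 (edgeR adjusted p = 0.190) in the CCDC97 knock-down. After the GC and length correction 7 more members passed, where 19.4% of all genes did. SYP (0.52), BSN (0.48), ERC2 (0.26), AMPH (0.23), NSF (0.23) and SV2A (0.16) were higher and SYT11 (-0.33) was lower. This comparison depended on the libraries used: without replicate 1 of both knock-downs, 6 members were called higher, SYP at 0.36 and RUNDC3A at 0.72 among them, and 15 lower, where 35.6% of all genes were called.

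The TTC33 and CCDC97 knock-downs were also compared with each other, which does not involve the controls in the difference. Here 23 members were higher in the TTC33 than in the CCDC97 knock-down and none lower, where 21.5% of all genes passed, 11.3% higher and 10.2% lower. Of the 30 neuron-restricted members tested 17 were higher, and of the 11 broadly expressed ones 6. Without SYT1, SYT4, SYT5 and SYN1, which the filter kept only through the TTC33 libraries, 13 of 26 neuron-restricted members were higher. The median log2 difference was 0.62 over the neuron-restricted and 0.32 over the broadly expressed members. With uncertain classes set aside, 16 of 27 neuron-restricted and 1 of 6 broadly expressed members were higher. The count of 16 and the neuron-restricted median include SYT1, SYT4, SYT5 and SYN1. UNC13A was higher by 2.94 ± 0.12, CPLX2 by 3.10 ± 0.16, CPLX1 by 2.19 ± 0.21 and SYP by 1.80 ± 0.11 on the log2 scale.

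Called in this direct comparison but not in the TTC33 knock-down against control were 6 members. RAB3B differed by 0.98 ± 0.09 on the log2 scale (edgeR adjusted p = 8.18e-05), SYT11 by 0.46 ± 0.09 (edgeR adjusted p = 0.00720) and SYNGR3 by 0.79 ± 0.14 (edgeR adjusted p = 0.00354). SYT11 had 30.6, 26.4 and 28.4 CPM in the TTC33 knock-down, 22.2, 19.9 and 20.1 CPM in the CCDC97 knock-down and 27.3, 26.5 and 24.1 CPM in control, and the CCDC97 libraries lay below all others. VAMP1, VAMP2 and RAB3D differed by 0.46 ± 0.12, 0.42 ± 0.10 and 0.32 ± 0.09. Their calls were lost without CCDC97 replicate 2 and without TTC33 replicate 2 or 3, those of VAMP1 and RAB3D also without CCDC97 replicate 3 and that of RAB3D without control replicate 1 or 2, with adjusted p of 0.0811 to 0.103 for VAMP1, 0.0557 to 0.0730 for VAMP2 and 0.0505 to 0.107 for RAB3D over all fits that lost them. After the GC and length correction the RAB3D call was lost (edgeR adjusted p = 0.0658), and SYPL1, SYNGR1 and RIMS3 were lower in the TTC33 knock-down than in the CCDC97 knock-down. That fit called 27.9% of all genes. The direction for SYNGR1 turned with the setting, at -0.24 after that correction and 0.35 without replicate 1 of both knock-downs, past the threshold each time. Without those libraries 10 more members passed than in the fit of all 9, 7 higher and 3 lower, where 55.2% of all genes were called. AMPH, which rose against control in the TTC33 knock-down, was not called here, at 0.21 ± 0.09 (edgeR adjusted p = 0.0976).

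Other genes of the release pathway, outside the 44, gave a frame for these counts. Of 40 further release genes that are mainly neuronal, 27 were tested, and in the TTC33 knock-down 4 rose and 3 fell (median log2 fold change 0.04). Of all genes tested, 6.5% rose and 5.44% fell in that comparison. RAB3C, another RAB3, had 5.33, 4.72 and 4.71 CPM in the TTC33 knock-down, 0.531, 0.595 and 0.387 CPM in the CCDC97 knock-down and 0.276, 0.381 and 0.507 CPM in control, with a log2 fold change of 3.67 ± 0.20 in the TTC33 knock-down (edgeR adjusted p = 1.89e-06). STXBP5L, a tomosyn, rose by a log2 fold change of 1.73 ± 0.12, and PPFIA2, a liprin, by 1.50 ± 0.25. SYT16 fell, by a log2 fold change of -0.82 ± 0.14.

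Of 42 broadly expressed genes of exocytosis and vesicle retrieval, 40 were tested, and 3 rose and 5 fell in the TTC33 knock-down, with a median of 0.03. The share that rose was 7.5%, near the 6.5% of all genes tested, of which 5.44% fell. STX3, a syntaxin of epithelial cells, rose to 42.2, 43.5 and 46.1 CPM in the TTC33 knock-down, against 25.8, 25.9 and 22.2 CPM in control (log2 fold change 0.83 ± 0.08; edgeR adjusted p = 0.000193). RAB27A and STXBP6 fell, by log2 fold changes of -0.91 ± 0.15 and -0.80 ± 0.14, and NAPA, an adaptor of NSF, rose by 0.47 ± 0.11. In the CCDC97 knock-down 1 of the 27 further neuronal genes rose and 2 fell, and 0 of the 40 broadly expressed genes rose and 2 fell. Of all genes tested, 2.07% rose and 2.49% fell there. PPFIA2 rose in the CCDC97 knock-down by 1.55 ± 0.25, and SYNJ1, a phosphatase of vesicle uncoating, and RIMS4 fell by -0.58 ± 0.08 and -0.30 ± 0.07. STXBP6 and SYTL5 fell by -0.84 ± 0.15 and -0.65 ± 0.12.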

How the data were processed

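RNA of 9 HEK293Flip-In T-Rex libraries in 3 groups was sequenced. The deposited tables give raw counts for each gene as whole numbers. Trimmomatic 0.39, HISAT2 and HTSeq 2.0.1 were used on GRCh38, per the submitters' processing notes. No source used here gives the annotation release or the strand setting. For each sample there is a table marked R12, used throughout, and a smaller one marked U of unstated meaning (6.55% to 11.9% of the sum of both). Lines naming no gene held 33.4% to 57.9% of the R12 counts and were left out. Depth was 21764203 to 36110891 counts in genes, and precision is given by the spread of 3 libraries.

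Genes kept by filterByExpr (18299) were fitted with edgeR 4.0.16 in R 4.3.3, with TMM factors, 1 term per group and all 9 libraries (6 residual degrees of freedom, common biological coefficient of variation 0.109). Quasi-likelihood p-values (two-sided) were adjusted by Benjamini-Hochberg across all genes tested, with a threshold of 0.05. The SE of a log2 fold change was derived from its F statistic. CPM are counts per 1e6 TMM-scaled counts. Levels per kilobase use the merged exon length of GENCODE release 29, whose GRCh38 coordinates are printed. The calculation was tested on simulated data.

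Alternatives were DESeq2 1.42.0 size factors and Wald test, upper-quartile factors, no filter or a mean of at least 1 CPM, the replicate number as a block, the summed R12 and U counts, the 2 groups compared alone, each library left out in turn, and smooth GC and length trends per library fitted with mgcv 1.9.3 (values for 98.6% of genes tested). Leaving out replicate 1 of both knock-downs, and the search for both RE1 motifs near each other or near the gene's outer start, were added after the data were seen. Promoter sequences are RefSeq's on GRCh38.p14. The windows of the remaining members with a match are not reported here.

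Members and lists were chosen with earlier results of these data known. Values per library are printed for members called in either knock-down against control and for 7 pairs of relatives, and of 2 further lists of release genes up to 4 genes with the smallest adjusted p are named. Other values per library were added after they were seen.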

Additional observations from a re-analysis of the deposited data

Results flagged for a closer look

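The U tables, which the comparisons above do not use, held the same direction for several members. Among the 18 members that rose in the TTC33 knock-down, 12 had every TTC33 U value above every control U value, and 7 of these had at least 20 U counts over the 3 controls. UNC13B, RAB3D, SYNGR3, NSF and SNPH, which did not pass, also lay all above control, and SYPL1 and RIMS3 all below. SYT1, SYT3, SYT7, SNAP25, SYN1 and AMPH, which rose, overlapped with control in the U tables. AMPH alone of these had a negative log2 ratio of the mean U-table CPM, TTC33 knock-down over control, at -0.078. ERC1, which fell, overlapped too, at -0.057. The share of all genes without overlap was not counted, so whether 12 of 18 is unusual is not known. For the 7 with at least 20 counts, the log2 ratio of the mean U-table CPM, TTC33 knock-down over control, was 2.256 for CPLX1, 2.134 for SYP, 2.024 for BSN, 1.386 for STX1A, 1.085 for MAPK8IP2, 0.633 for RIMS2 and 0.6 for PCLO. SYP had 67.3, 75.0 and 85.0 U-table CPM in TTC33-depleted cells, 21.7, 17.5 and 18.0 in CCDC97-depleted cells and 15.0, 17.8 and 19.0 in control. BSN had 27.3, 36.8 and 37.8 U-table CPM in TTC33-depleted cells, 18.4, 16.4 and 8.34 in CCDC97-depleted cells and 6.07, 8.82 and 10.2 in control. What the U tables hold is not stated, and both tables come from the same libraries, so they are no independent replicates. No test was run on them alone.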

How the results depend on the processing

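With the members called as the measure, the TTC33 knock-down against control gave 19 calls, the CCDC97 knock-down against control 3 and the direct comparison 23. Leaving out 1 library at a time gave 11 to 26, 1 to 8 and 19 to 27 calls, while 2.96% to 34.9%, 1.09% to 10.6% and 8.17% to 41.6% of all genes were called. Without TTC33 replicate 2 or a control library the first count was 11 or 12. Without replicate 1 of both knock-downs the counts were 29, 21 and 33, while 9129, 6675 and 10362 of 18764 genes were called in the same fits. The replicate block gave 13, 1 and 21 calls, and 756, 240 and 1857 calls over all genes. Same-numbered libraries correlated at 0.07, 0.04 and 0.07 between TTC33 knock-down and control and at -0.03, 0.09 and 0.01 between CCDC97 knock-down and control. Between the TTC33 and CCDC97 knock-downs they correlated at -0.50, -0.11 and -0.14. There, replicate 1 of each knock-down correlated with replicates 2 and 3 of the other at 0.26 to 0.37. The numbers were not taken as pairs. For the CCDC97 knock-down, the GC and length correction gave 10 calls (19.4% of all genes), the replicate block with that correction 6 (17.4%), the 2 groups compared alone 5 (7.48%) and DESeq2's Wald test 6 (7.91%). Counts for the other comparisons stayed within 1.5 times under the settings not named here. With uncertain classes set aside, called broadly expressed members numbered 1 (not 2) in the TTC33 knock-down, 1 (not 2) in the CCDC97 knock-down and 1 (not 6) in the direct comparison. The left RE1 motif alone was in 7.64% of all promoters, and either motif in 12.9%. The fold changes of members near 0 changed sign. In the TTC33 knock-down SYN2 was -0.0225 and SYN3 -0.0593 with the GC and length correction, and -0.0217 and -0.0584 with the replicate block and that correction. When 1 library was left out, SYN2 ranged from -0.0112 to 0.0713 and SYN3 from -0.0217 to 0.145. SYT2, DOC2A and SNCB ranged from -0.04 to 0.16, from -0.14 to 0.17 and from -0.18 to 0.30. The cause of these shifts was not tested. Depth limits SYT1 and SYT5, with 2 to 8 counts in each control library, and the members below the filter.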

Other observations

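Some genes of dense-core granules, which neuroendocrine cells release with much of the same machinery, rose along with the neuron-restricted members. Of 10 such markers 9 were tested, and 5 rose and 0 fell in the TTC33 knock-down, with a median log2 fold change of 1.62. Of all genes tested, 6.5% rose and 5.44% fell in that comparison. SCG2, SCG5, INSM1 and CPE did not pass, with log2 fold changes of 0.436, 0.0859, 0.00586 and -0.0511. SCG3 had 16.1, 13.4 and 14.7 CPM in the TTC33 knock-down, 2.65, 2.18 and 2.61 CPM in the CCDC97 knock-down and 1.49, 1.90 and 1.30 CPM in control. CHGA, chromogranin A, had 10.2, 12.6 and 13.2 CPM in the TTC33 knock-down, 1.66, 1.29 and 1.74 CPM in the CCDC97 knock-down and 1.41, 1.50 and 1.05 CPM in control. Log2 fold changes in the TTC33 knock-down were 3.23 ± 0.15 for SCG3, 3.17 ± 0.17 for CHGA, 2.51 ± 0.19 for CHGB, 3.47 ± 0.38 for PCSK1 and 1.61 ± 0.27 for PCSK2, with edgeR adjusted p-values of 8.51e-07, 1.33e-06, 2.74e-05, 0.000329 and 0.00456. PCSK1 was near the floor elsewhere, with 0.212, 0.198 and 0.145 CPM in the CCDC97 knock-down and 0.111, 0.0816 and 0.0317 CPM in control. The filter thus kept PCSK1 through the TTC33 libraries, and it had to differ. In the CCDC97 knock-down 0 of the 9 passed, where 4.56% of all genes did.

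General neuronal markers moved less. Of 12, 8 were tested, and in the TTC33 knock-down INA (log2 fold change 0.77 ± 0.06) and TUBB3 (1.12 ± 0.24) rose and NEFL (-0.30 ± 0.06) fell, with edgeR adjusted p-values of 4.86e-05, 0.0173 and 0.0120. The summed level of the list was 341 to 347 CPM in the TTC33 knock-down, 309 to 325 CPM in the CCDC97 knock-down and 323 to 329 CPM in control. DCX and ELAVL4, which mark young neurons, were at or near 0 CPM in all groups. STMN2, also below the filter, had 0.193, 0.173 and 0.191 CPM in the TTC33 knock-down and 0, 0 and 0.0317 CPM in control. Of 12 genes that set the transmitter of a neuron 2 were tested, and SLC17A7, a vesicular glutamate transporter, rose by a log2 fold change of 1.03 ± 0.22 in the TTC33 knock-down. SLC17A6 and TH had 0 counts in every library. Of 8 glial markers 5 were tested, and MBP fell in the TTC33 knock-down and OLIG1 in the CCDC97 knock-down, by log2 fold changes of -0.48 ± 0.09 and -0.72 ± 0.18. Of 12 markers of the HEK293 line, which share NEFL and NEFM with the general neuronal list, 2 rose and 2 fell in the TTC33 knock-down, NEFL being one of those that fell, and 0 changed in the CCDC97 knock-down. Beside these counts, 6.5% of all genes tested rose and 5.44% fell in the TTC33 knock-down. In the CCDC97 knock-down 2.07% rose and 2.49% fell.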
